A study of Mus musculus with 5 samples.

Results

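E2F4 sites lacking RNA polymerase II (RNA Pol II) are short stretches of the mouse genome where chromatin immunoprecipitation recovered E2F4 but hardly any RNA Pol II. They were chosen from read counts in bins of 500 bp on chromosomes 1 to 19. A bin was kept when it held at least 8 E2F4 reads, when its fold over whole cell extract (WCE, sequenced without antibody) was at least 3, and when it and the bin on either side each held at most 5 RNA Pol II reads. The E2F4 limits were met by 0.345% of the 3565573 bins with an E2F4 or WCE read. Adjacent bins were joined. This gave 753 sites, 8.40% of the 8962 E2F4 sites that passed the E2F4 limits, and the other 8209 had more than 5 RNA Pol II reads in the bin or beside it. The 753 sites were split by histone H3 trimethylated at lysine 27 (H3K27me3). In 90 of them the surrounding 2-kb bin had an H3K27me3 fold over WCE of at least 3, and in 663 it had not.

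E2F4 is a DNA-binding member of the E2F family that acts mostly as a repressor. With the pocket proteins p130 and p107 it sits on promoters of cell cycle genes in resting cells, and it is a component of the DREAM complex. H3K27me3 is laid down by Polycomb repressive complex 2 and covers silent developmental genes, often in broad domains. RNA Pol II is the enzyme that transcribes protein-coding genes, and it gathers at active and paused promoters.

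All 5 libraries came from 1 kind of cell, secondary mouse embryonic fibroblasts whose Klf4, Sox2 and Oct4 transgenes are switched on by doxycycline. The labels' protocols describe how they were made: iPS cells with these transgenes and an Oct4-selectable cassette went into BDF2 blastocysts, the chimeras were dissected on day 13.5 of gestation, and 48 hours in puromycin (2 µg/ml) selected the fibroblasts that stem from the iPS cells. Host cells that survived selection would be part of the sample, and the labels state no doxycycline treatment and no number of embryos. There was 1 library each for E2F4, RNA Pol II (antibody 8WG16) and H3K27me3, and 2 for WCE, so a test compares libraries and not conditions, and no value has a replicate check.

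After repeats of a position and strand were removed, the autosomes held 1971874 E2F4 reads, 3111606 RNA Pol II reads and 9483163 H3K27me3 reads. WCE replicate 2 had 11226593 reads, and WCE replicate 1, which stands apart by its depth, had 417799. A count of 0 allows up to 3 counts, which is 0.000152% of the E2F4 library and 9.64e-05% of the RNA Pol II library. Intervals are exact (Clopper-Pearson) at 95%. Those on reads cover counting error only, since amplified reads are not independent molecules, and those on shares of sites treat each site as an independent trial.

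The values that chose the sites were as follows, as a description. The median site held 9 E2F4 reads (quartiles 8 and 13, range 8 to 117) and 10 WCE reads (7 and 14, range 0 to 36). Among the 750 sites with a WCE read the median E2F4 ratio to WCE was 6.43 (4.29 and 10.6), scaled to the autosomal reads left after repeats were removed. This was close to the 6.35 of E2F4 sites with RNA Pol II, which held more of both kinds of read. Over bins with an E2F4 or WCE read, the limit of 8 E2F4 reads was 14.5 times the E2F4 mean of 0.553, and the limit of 5 RNA Pol II reads was 5.88 times the RNA Pol II mean of 0.851. A site "lacking" RNA Pol II can therefore still lie above the RNA Pol II average. The median site held 2 RNA Pol II reads (1 and 3), and 166 held 0. Most sites were 1 bin long (722), 30 had 2 bins and 1 had 3. At 73 sites there were at least 20 E2F4 reads and at 21 at least 40.

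Many sites lay close to the limits. In 233 the highest bin had exactly 8 E2F4 reads, while 404 bins with 7 reads met every other limit. The highest RNA Pol II count was 5 at 101 sites, and 78 E2F4 sites with a count of 6 fell outside. Bins of the sites with a fold from 3 to 3.2 numbered 20, and 23 bins from 2.8 to 3 fell outside. When repeated reads were kept, the same limits gave 1741 sites, and against WCE replicate 1 alone the same fold limit left 153. WCE replicate 1 had 0 reads at 706 of the 753 sites. At the depth of that library, even a bin with 0 WCE reads needs more than 8 E2F4 reads to reach a fold of 3. The 153 therefore also reflects a higher read limit. A binomial test of every 500-bp bin against WCE (adjusted p under 0.01 by Benjamini-Hochberg, fold at least 3) called 0.736% of the 1146594 bins with an E2F4 read. It called a bin in 345 of the 753 sites, but the rule used the same contrast and nothing is read from that count. RNA Pol II was called in 3.39% of bins with a read and in 0 of the sites, which the limit of 5 reads fixes in advance.

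**Figure D1:**
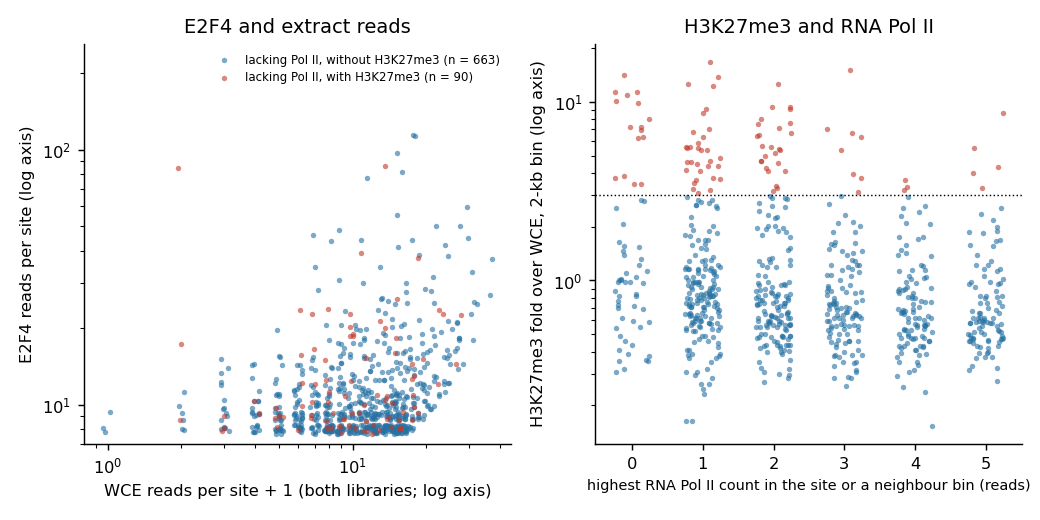
Left, each point is 1 of the 753 sites, with summed WCE reads + 1 on the x axis and E2F4 reads on the y axis (both log axes, points spread slightly to separate ties). Right, the H3K27me3 fold of the surrounding 2-kb bin (log axis, dotted line at 3) against the highest RNA Pol II count in the site or a neighbouring bin. The sites with H3K27me3 (red) spread over the same E2F4 and WCE range as the others (blue), and most of them have an RNA Pol II count of 0 to 2.

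Read placement within the sites had the pattern of short DNA fragments around a point. The rule counted reads after moving them 60 bp by strand, and pairs were taken around summits of the moved reads. Both steps favour this order in advance. No such distance was measured for WCE or for other bins, so the values are a description. Forward reads lay to the left of reverse reads, and the distance between the strands with the most read pairs was 160 bp, against 177 bp at E2F4 sites with RNA Pol II. It was 162 bp with and 160 bp without H3K27me3. The strand with more reads held 59.7% of the E2F4 reads (58.7 to 60.6), where equal chances for both strands would give 60.7% at these counts. Only 4 of the 753 sites had reads on 1 strand alone. Repeats of a position and strand made up 19.01% of the E2F4 reads at the sites (18.3 to 19.7), against 19.05% on all autosomes and 29.8% (29.7 to 29.9) at E2F4 sites with RNA Pol II. E2F4 reads listed at 2 places in the genome fell in 139 sites, 18.5% (15.8 to 21.4), below the 36.8% (35.7 to 37.8) of E2F4 sites with RNA Pol II, which hold more E2F4 reads. For WCE replicate 2 such reads fell in 31 of the 753 sites.

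Of the 2 WCE libraries, replicate 2 was itself raised at the sites. It was 2.53 times as dense in them as 20 to 50 kb from their centres (2.47 to 2.58), and 4.44 times (4.42 to 4.46) at E2F4 sites with RNA Pol II. The E2F4 library was 17.9 times as dense (17.5 to 18.3) and RNA Pol II 1.44 times (1.36 to 1.51). The rule required E2F4 reads in the site and capped RNA Pol II in the site and beside it. Nothing is therefore read from either of these 2 values. The shallow WCE replicate 1 had 58 reads in all sites together, at 0.846 of its flanks (0.642 to 1.09). At E2F4 sites with RNA Pol II it was at 0.822 (0.771 to 0.877), so it was raised at neither kind of site. The cause of this difference between the 2 WCE libraries was not tested. Over the summed extract the sites stood at 6.98 for E2F4 (6.78 to 7.19) and at 0.681 for RNA Pol II (0.644 to 0.720). The rule bears on both of these values too, so they are a description.

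The first comparison asked how often these sites lie in H3K27me3 chromatin, which played no part in choosing them. H3K27me3 was present at 90 of 753 sites, 11.95% (9.72 to 14.5), against 114 of 8209 E2F4 sites with RNA Pol II, 1.39% (1.15 to 1.67). The ratio of the shares was 8.61 (6.45 to 11.4). Over all 2-kb bins with a read the same fold was reached in 4.63% of 1116249. Over those with at most 5 RNA Pol II reads in each 500-bp bin and neighbour it was 4.72% (4.68 to 4.76). That cap covers a wider stretch than the cap at the sites. By the binomial test with Benjamini-Hochberg adjustment over the genome, H3K27me3 was called at 89 of the 753 sites, 11.8% (9.60 to 14.3), where 2.32% of all 2-kb bins with an H3K27me3 read were called. At E2F4 sites with RNA Pol II it was called at 113. By fold over WCE, the share at sites lacking RNA Pol II was above the background of the genome.

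The size of this difference depended on the background. E2F4 and H3K27me3 share the WCE libraries. WCE replicate 2 was denser at E2F4 sites with RNA Pol II, and its part in the difference was not tested. With odd positions of WCE replicate 2 as background for E2F4 and even ones for H3K27me3, the ratio of shares was 8.36. When H3K27me3 was instead compared with its own mean over the genome, with no extract, a choice made after the data were seen, 29.7% of the sites and 21.1% of E2F4 sites with RNA Pol II reached 3 times the mean, and the ratio was 1.41. The share of all 2-kb bins that reach 3 times the mean is not given here, so these 2 shares have no genome background beside them. The H3K27me3 library was denser at both kinds of site than around them. H3K27me3 was also measured away from the site without any extract, though the sites themselves had been chosen by a fold over it. Its density at 2 to 10 kb from the centre was at least 3 times the genome mean at 126 of 753 sites, 16.7% (14.1 to 19.6), at 305 of 8209 sites with RNA Pol II, 3.72% (3.32 to 4.15), and at 4.12% of all 2-kb bins, within the interval of the sites with RNA Pol II. Summed over sites, H3K27me3 density at 2 to 10 kb was 1.60 times (1.59 to 1.61) that around E2F4 sites with RNA Pol II, whereas WCE replicate 2 stood at 1.001 (0.994 to 1.01).

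The share with H3K27me3 was highest where RNA Pol II reads were fewest, also among the 753 sites themselves. Of the 62 sites where neither the site nor its neighbours held more than 0 RNA Pol II reads, 16 had H3K27me3, 25.8% (15.5 to 38.5). At a highest count of 1 it was 16.3% (11.4 to 22.3) of 196 sites, at 2 it was 15.7% (10.5 to 22.1) of 166, at 3 it was 6.67% (2.92 to 12.7) of 120 and at 4 or 5 it was 8 sites, 3.83% (1.67 to 7.40). Just outside the limit, at counts of 6 to 8, it was 6.73% (3.81 to 10.9) of 223, so the limit of 5 marks no step, and from 4 to 20 reads the share did not fall further. Above 100 reads it was 0.333% (0.172 to 0.581) of 3601. The median WCE count rose over the same classes from 7 to 28 reads, and its part in the trend was not tested. By density at 2 to 10 kb, with no extract, the share was 29.03% (18.2 to 41.9) at a count of 0, 17.3% (12.3 to 23.4) at 1, 19.9% (14.1 to 26.8) at 2, 20.8% (13.96 to 29.2) at 3 and 7.66% (4.44 to 12.1) at 4 or 5. Outside the limit it was 8.97% (5.56 to 13.5) at 6 to 8, 10.2% (6.26 to 15.5) at 9 to 12 and 9.44% (6.63 to 12.9) at 13 to 20. It was 4.71% (3.62 to 6.01) at 21 to 50, 3.42% (2.75 to 4.20) at 51 to 100 and 2.33% (1.86 to 2.88) above 100. From 4 to 20 reads these intervals overlapped on both sides of the limit. By this measure the lower share at a count of 3 was not seen.

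**Figure D2:**
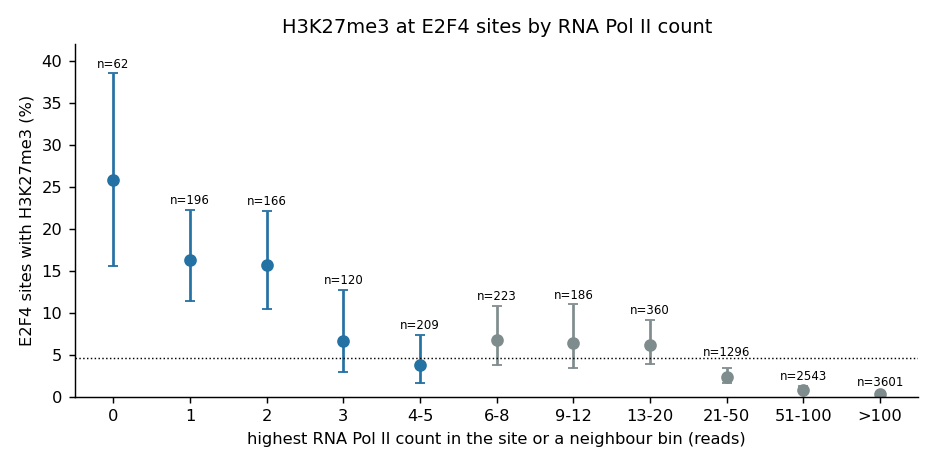
Share of E2F4 sites with an H3K27me3 fold of at least 3 (y axis, percent) by the highest RNA Pol II count in the site or a neighbouring bin (x axis, reads), with exact 95% intervals and the number of sites in each class. Blue classes are the sites lacking RNA Pol II, grey ones the sites with it, and the dotted line is the 4.63% of all 2-kb bins. The share is 25.8% at a count of 0 and 0.333% above 100.

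At matched counts of other libraries the order of the 2 kinds of site was the same. With 8 or 9 E2F4 reads, 10.8% (7.83 to 14.3) of 381 sites lacking RNA Pol II and 2.97% (1.93 to 4.36) of 841 sites with it had H3K27me3. With 20 to 39 E2F4 reads it was 12 of 52, 23.1% (12.5 to 36.8), and 24 of 2284, 1.05% (0.674 to 1.56). With 10 to 14 WCE reads it was 10.1% (6.57 to 14.6) of 238 and 2.23% (1.47 to 3.22) of 1213. With at most 5 WCE reads it was 13.1% (7.98 to 19.97) of 137 and 7.14% (3.96 to 11.7) of 196, and there the intervals overlapped.

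The second comparison set the 90 sites with H3K27me3 beside the 663 without. E2F4 reads had chosen the sites, so both groups start at the same limit of 8 reads in a bin. That limit draws their medians and ranges together, and the E2F4 values are a description. Above it, E2F4 reads separated the groups little. The median was 10 reads (quartiles 9 and 15.8, highest 88) with the mark and 9 (8 and 13, highest 117) without, and the groups overlapped over nearly their whole range. Summed E2F4 density was 1.13 times as high with the mark (1.06 to 1.20). In the alternatives it ran from 1.09 (1.02 to 1.16) to 1.27 (1.21 to 1.32), with each interval above 1. Without the 2 sites of most reads in each group it was 1.02 (0.961 to 1.09). That step removes a larger share of the 90 sites than of the 663, which in itself tends to lower the ratio. WCE replicate 2 was at 0.908 (0.846 to 0.974). RNA Pol II reads within the sites were at 0.618 (0.507 to 0.747), with medians of 1 and 2 reads and the cap of 5 per bin on both.

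The split fixed the H3K27me3 level in the 2-kb bin around the site, where the median fold was 5.48 with the mark (range 3.07 to 16.7) and 0.702 without. Just inside the limit, 12 sites had a fold from 3 to 3.5, and just outside it 25 had 2.5 to 3. Around E2F4 summits of the 90 sites, H3K27me3 density was 80.1 reads per kb per 10000000 within 200 bp, 73.0 at 200 to 400 bp, 52.04 at 1 to 2 kb, 22.1 at 5 to 10 kb and 13.1 at 20 to 50 kb. The split selects for density near the site, so the height at the centre is a description. H3K27me3 read density showed no dip at the E2F4 summit. WCE replicate 2 peaked in the same place, at 18.6 within 200 bp, 12.1 at 200 to 400 bp and 6.51 at 20 to 50 kb. It fell more steeply than H3K27me3 beside the summit, so relative to this extract H3K27me3 was lower at the summit than at 200 to 400 bp. What the extract adds to the H3K27me3 peak was not tested. Without the mark, H3K27me3 went from 13.4 within 200 bp to 7.01 at 20 to 50 kb, 1.91 times, while WCE replicate 2 rose 2.89 times.

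**Figure D3:**
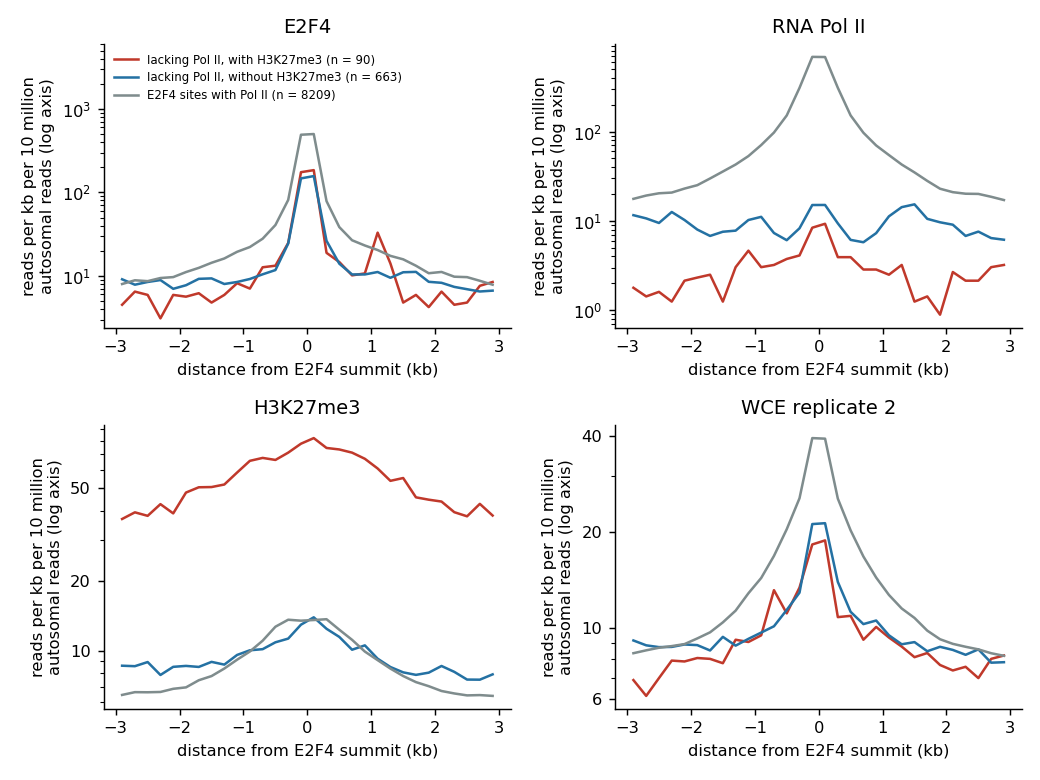
Read density (y axis, log scale, reads per kb per 10000000 autosomal reads, in steps of 200 bp) against distance from the E2F4 summit (x axis, kb) for 90 sites with H3K27me3 (red), 663 without (blue) and 8209 E2F4 sites with RNA Pol II (grey), in 4 libraries. H3K27me3 stands higher over the whole window in the red group, and WCE replicate 2 peaks at the summit in each of the 3 groups. The red E2F4 rise between 1 and 1.4 kb holds 167 reads, 83 of them from 1 site.

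The chromatin around the 90 sites carried the mark well beyond the bin used for the split. At 2 to 10 kb H3K27me3 was 2.01 times as dense as at 20 to 50 kb (1.98 to 2.03), against 1.08 (1.07 to 1.09) around sites without the mark and 0.892 (0.890 to 0.895) around E2F4 sites with RNA Pol II. It was 1.57 (1.57 to 1.57) around 23194 called H3K27me3 bins without an E2F4 site. These had at most 5 RNA Pol II reads in each 500-bp bin of the 2 kb and in its neighbours. Those bins had a median fold of 4.47, below the 5.48 of the sites, so strength and presence of E2F4 were not separated. The run of consecutive 2-kb bins with a fold of at least 3 had a median length of 10 kb (quartiles 4 and 19.5 kb), and the longest ran for 68 kb. Of the 90 sites, 10 lay in a run of 1 bin and 47 in runs of at least 5 bins. In 21 of those 47 the site's own bin was the densest of its run. At the 114 E2F4 sites with both RNA Pol II and H3K27me3 the median run was 6 kb (4 and 12).

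**Figure D4:**
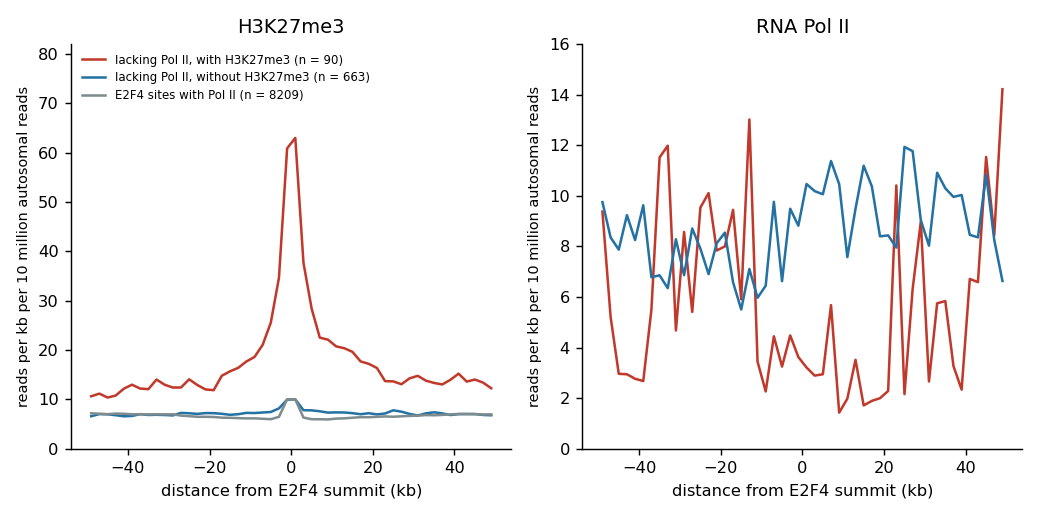
Read density in steps of 2 kb up to 50 kb from the E2F4 summit for H3K27me3 (left) and RNA Pol II (right), for 90 sites with H3K27me3 (red), 663 without (blue) and, on the left, 8209 E2F4 sites with RNA Pol II (grey). H3K27me3 around the red sites falls to 13.1 reads per kb per 10000000 at 20 to 50 kb, still above the 7.01 of the blue sites. RNA Pol II around the red sites is low on both sides of the summit and uneven farther out, and 10 of the 90 sites hold 55.6% of its reads at 1 to 10 kb.

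RNA Pol II was low around the 90 sites well outside the bins used by the rule. At 1 to 10 kb the median site with H3K27me3 had 9 RNA Pol II reads (quartiles 6 and 14) and the median site without had 16 (9 and 39), so the lower part of both ranges overlapped. The summed density was 0.347 of that around sites without the mark (0.330 to 0.364), and WCE replicate 2 was 0.851 (0.835 to 0.867). Against their own sequence at 20 to 50 kb, RNA Pol II at 1 to 10 kb stood at 0.493 (0.468 to 0.520) with the mark, 1.09 (1.07 to 1.10) without and 1.38 (1.37 to 1.38) at E2F4 sites with RNA Pol II. WCE replicate 2 stood at 1.06, 1.10 and 1.10. RNA Pol II was less dense near than far at 61 of 90 sites, 67.8% (57.1 to 77.2), at 366 of 663, 55.2% (51.3 to 59.03), and at 43.1% of sites with RNA Pol II. These intervals overlap for the first pair, and 10 of the 90 sites held 55.6% of the RNA Pol II reads at 1 to 10 kb. The value was 0.805 in the alternative that required an H3K27me3 fold of at least 5. The called H3K27me3 bins without an E2F4 site stood at 0.471 (0.469 to 0.472). Their cap of 5 RNA Pol II reads covered the whole 2-kb bin and its neighbours, more than at the sites, and reached past 1 kb. At 2 to 10 kb, beyond the cap, they stood at 0.493 (0.492 to 0.495) and the 90 sites at 0.514 (0.487 to 0.543). Low RNA Pol II around H3K27me3 was thus not particular to the sites with E2F4. Around sites without the mark the value changed direction with the limits, to 0.837 with at most 2 RNA Pol II reads and 0.937 with at least 12 E2F4 reads.

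Sites lacking RNA Pol II were farther from the next RNA Pol II-rich bin (at least 20 reads and a fold of at least 3) than other E2F4 sites. The median distance was 51000 bp (44000 to 57500), and for E2F4 sites with RNA Pol II, measured beyond their own neighbouring bins, it was 21500 bp (21000 to 22500). With H3K27me3 the median was 63000 bp (52500 to 85500) and without it 47000 bp (41500 to 54500), and these intervals overlap. Such a bin lay less than 5 kb from 71 of the 753 sites, 9.43% (7.44 to 11.7), and from 26.3% (25.3 to 27.3) of sites with RNA Pol II. At 100 kb or more lay 211, 28.02% (24.8 to 31.4), against 15.4% (14.7 to 16.2). The rule itself removes sites with RNA Pol II in the next bin, which bears on the closest class. At sites with RNA Pol II, their own signal beyond the neighbouring bins can count as the next rich bin. Within 0.5 kb such a bin lay at 16.5% of them, against 0% of the sites with H3K27me3 and 1.66% of those without. How much this adds to the gap between the medians was not tested. Only 4 sites adjoined an E2F4 site with RNA Pol II.

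**Figure D5:**
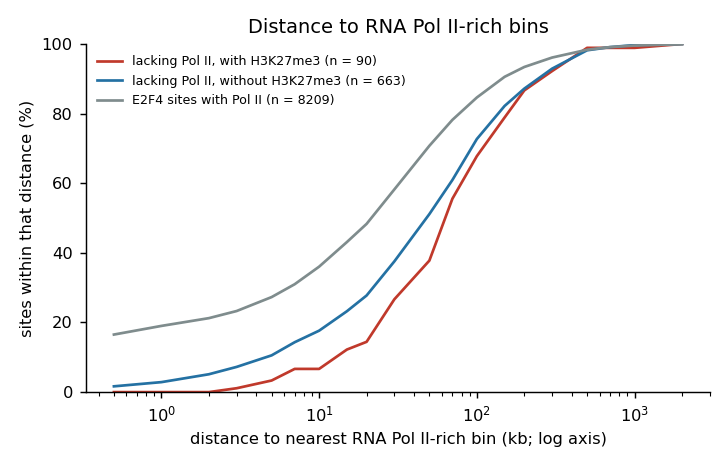
Share of sites (y axis, percent) with an RNA Pol II-rich bin within a given distance (x axis, kb, log axis) for 90 sites lacking RNA Pol II with H3K27me3 (red), 663 without (blue) and 8209 E2F4 sites with RNA Pol II (grey). Medians are 63000, 47000 and 21500 bp.

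Among single sites with H3K27me3, the 6 with the highest lower limit of the E2F4 ratio to WCE are the upper end of the group (positions are on mm8, 1-based). On chromosome 5 from 114534501 to 114535000 there were 88 E2F4 reads, 0 RNA Pol II, 64 H3K27me3, 0 WCE replicate 1 and 1 WCE replicate 2 reads. Its E2F4 reads were split into 38 forward and 50 reverse, its H3K27me3 fold of 16.7 was the highest of all 753 sites, and it lay in a run of 28 kb from 114530001 to 114558000, 97 kb from the nearest RNA Pol II-rich bin. Chromosome 11 from 69751501 to 69752000 had 85 E2F4 reads, 5 RNA Pol II, 54 H3K27me3, 0 and 12 WCE reads, an E2F4 ratio of 41.8 (22.7 to 84.1) and an H3K27me3 fold of 3.31. This site sits at the RNA Pol II limit and near that of H3K27me3, with an RNA Pol II-rich bin 13 kb away.

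Chromosome 19 from 45274501 to 45275000 had 41 E2F4 reads, 0 RNA Pol II, 31 H3K27me3, 0 and 10 WCE reads, with a ratio of 24.2 (11.9 to 54.2) and a run of 40 kb, and the nearest RNA Pol II-rich bin was 140.5 kb away. Chromosome 7 from 18126001 to 18126500 had 23 E2F4 reads, 0 RNA Pol II, 22 H3K27me3, 0 and 5 WCE reads. Chromosome 4 from 147014501 to 147015000 likewise had 23 E2F4 reads and 0 RNA Pol II, with 11 H3K27me3 reads and 0 and 6 WCE reads. On the same chromosome, 153748001 to 153748500 had 18 E2F4 reads, 1 RNA Pol II, 8 H3K27me3, 0 and 1 WCE reads, so its ratio of 106 is imprecise (16.8 to 4429). E2F4 reads lay on both strands at each of these 6 sites.

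The sites in the 3 longest H3K27me3 runs differed in E2F4. In the run of 68 kb on chromosome 7 from 79368001 to 79436000, the site from 79369501 to 79370000 had 36 E2F4 reads, 0 RNA Pol II, 43 H3K27me3, 1 and 16 WCE reads, and no neighbouring bin held an RNA Pol II read. In runs of 60 kb on chromosome 5 and 54 kb on chromosome 11 the sites had 8 E2F4 reads each, with 7 and 15 reads of WCE replicate 2. Those E2F4 ratios were 6.75 (2.14 to 21.9) and 3.15 (1.16 to 7.91). After the site on chromosome 5 described first, the highest H3K27me3 folds were 15.1 on chromosome 17 from 85596501 to 85597000, with 9 E2F4 and 147 H3K27me3 reads in the 2-kb bin, and 14.1 on chromosome 7 from 131345001 to 131345500, with 16 E2F4 reads and 0 RNA Pol II reads. The former lay 456 kb from an RNA Pol II-rich bin and the latter 6 kb.

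Strong E2F4 without RNA Pol II also occurred outside H3K27me3. Chromosome 17 from 31937501 to 31938500 had the most E2F4 reads of all 753 sites, 117, with 3 RNA Pol II, 4 H3K27me3, 0 and 16 WCE reads. The E2F4 ratio was 43.2 (25.5 to 78.0). Chromosome 1 from 90576501 to 90577000 had 116 E2F4 reads, 0 RNA Pol II, 7 H3K27me3, 0 and 17 WCE reads, a ratio of 40.3 (24.1 to 71.5). Another site on chromosome 1, from 90365001 to 90366000, had 79 E2F4 reads, 3 RNA Pol II, 4 H3K27me3, 2 and 13 WCE reads, with the nearest RNA Pol II-rich bin 167 kb away. All 3 sites had at most 3 RNA Pol II reads and an H3K27me3 fold between 0.320 and 0.720, below the extract.

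On chromosome 5, 123255001 to 123255500 had 79 E2F4 reads, 0 RNA Pol II, 2 H3K27me3, 0 and 10 WCE reads, a ratio of 46.7. An RNA Pol II-rich bin lay 5 kb from it, the closest among these 6. Chromosome 16 from 10106001 to 10107000 had 95 E2F4 reads, 3 RNA Pol II, 18 H3K27me3, 0 and 14 WCE reads, and its H3K27me3 fold of 1.90 was the highest among the 6. Chromosome 1 from 93196501 to 93197000 had 45 E2F4 reads, 1 RNA Pol II, 6 H3K27me3, 0 and 6 WCE reads. The longest site, 1500 bp on chromosome 8 from 64175001 to 64176500, had 40 E2F4 reads, 5 RNA Pol II, 12 H3K27me3, 0 and 18 WCE reads.

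The sites lay on all 19 autosomes, from 16 on chromosome 13 to 63 on chromosome 8. As a share of each chromosome's E2F4 sites they ranged from 5.51% (3.80 to 7.69) on chromosome 7 to 14.1% (10.8 to 17.9) on chromosome 12. The highest numbers with H3K27me3 were 11 of 60 on chromosome 2 and 10 of 58 on chromosome 11. Sites rarely clustered. Only 2 groups had 3 or more sites with gaps of at most 50 kb. One on chromosome 18 had 4 sites within 68 kb, with 8 to 17 E2F4 reads each, and the other, on chromosome 6 from 17093001 to 17152500, had 3 sites with 8 to 14. None of these 7 sites had H3K27me3.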

How the data were processed

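The files hold 1 genome position per aligned read with a sign for the strand, as the authors deposited them; this is an other unit than a count. Per the file headers, the authors aligned to mm8 with bowtie, a version of which the sources used here do not give, allowing 2 mismatches in the seed and reads with at most 2 placements. The seed spanned 36 bases in the H3K27me3 and WCE replicate 2 libraries and 26 bases in the other 3, and was taken as the read length. Positions were read as left ends. Reads of the first section (1 placement) entered once per strand and position, with 5′ ends shifted 60 bp downstream. Fold is ((k + 1)/K)/((w + 1)/W), with k and w the antibody and summed WCE reads and K and W their autosomal totals. Summits are the densest 200 bp of a site. Density ratios are of summed reads. Bins were tested with an exact binomial test (1-sided, given the sum of antibody and WCE reads) and Benjamini-Hochberg adjustment over bins with at least 1 antibody read. Scripts were tested on simulated data.

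The sites, lists and tests were chosen with earlier results of these data known. Named sites are the 6 of each group with the highest lower limit of the E2F4 ratio, the 3 longest, the 3 with the highest H3K27me3 fold, the 3 in the longest runs, and clusters. The alternatives varied read and fold limits, the background, the read shift, repeats, the bin grid, joining and the H3K27me3 rule. No genome or annotation of mm8 was used here, so no sequence is printed, motifs were not searched and no site is assigned to a gene. Python 3.11.15, numpy 2.4.6, pandas 2.3.3 and scipy 1.17.1 were used.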

Additional observations from a re-analysis of the deposited data

Results flagged for a closer look

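Chromosome X was outside the rule. By the same limits, with autosomal totals, it held 6 E2F4 sites lacking RNA Pol II among 217 E2F4 sites, with 235 E2F4 and 46 WCE reads in the 6 together. Reads listed at 2 places were not used to choose the sites. They gave 24 E2F4 sites lacking RNA Pol II among 421 on chromosomes 1 to 19, with 347 E2F4 and 92 WCE lines, and 1 of the 24 overlapped one of the 753 sites. Each of these reads enters at 2 places, and which one it came from is not resolved.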

How the results depend on the processing

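With 1 library per antibody, depth limits which sites reach 8 reads, and a site with 0 to 5 RNA Pol II reads cannot be told from one with weak RNA Pol II. The number of sites was 232 with at least 12 E2F4 reads, 495 with an E2F4 fold of at least 5, 426 with at most 2 RNA Pol II reads and 1741 with repeats kept, and it was 745 and 153 without WCE replicate 1 and without replicate 2. No paired analysis was possible because the antibody groups have 1 library each.

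The share with H3K27me3 was 17.4% with at most 2 RNA Pol II reads, 8.62% with repeats kept, 17.9% and 6.77% at H3K27me3 folds of 2 and 5, 20.6% with H3K27me3 scaled on background bins and 29.7% against a uniform background, and 11.9% to 15.7% when either WCE library was left out. Its ratio to the share at E2F4 sites with RNA Pol II was 13.8 with at least 12 E2F4 reads, 5.46 with repeats kept, 11.8 at an H3K27me3 fold of 5 and 1.41 against a uniform background, which was added after the data were seen. It stayed above 1 in each of the alternatives run. The E2F4 ratio between groups was 1.24 with repeats kept and 1.27 against a uniform background.

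H3K27me3 at 2 to 10 kb over 20 to 50 kb, around sites with the mark, was 2.10 with at least 12 E2F4 reads, 1.96 at an E2F4 fold of 5, 2.03 with at most 2 RNA Pol II reads, 2.03 with the split extract, 2.10 with repeats kept, 2.05 with bins started 250 bp later, 1.93 and 2.39 at H3K27me3 folds of 2 and 5, 1.86 on background bins, 1.63 against a uniform background and 2.07 to 2.40 without either WCE library. Around sites without the mark the same settings gave 1.24, 1.06, 1.06, 1.10, 1.03, 1.06, 1.01, 1.13, 0.995 and 0.975, with 1.08 to 1.24 without either WCE library. The value of 0.975 (0.965 to 0.985) reversed the direction, while the interval of 0.995 (0.986 to 1.004) includes 1. Both settings count more sites as having the mark and so leave fewer in this group.

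RNA Pol II at 1 to 10 kb over 20 to 50 kb, around sites with the mark, was 0.576 with at least 12 E2F4 reads, 0.532 with the split extract, 0.450 with reads moved 75 bp, 0.603 with repeats kept, 0.575 with bins started 250 bp later, 0.531 with bins joined over a gap, 0.805 at an H3K27me3 fold of 5, 0.705 against a uniform background and 0.446 to 0.504 without either WCE library. Around sites without the mark it reversed to 0.937 with at least 12 E2F4 reads, 0.837 with at most 2 RNA Pol II reads and 0.982 with repeats kept, and the cause was not tested. It was 1.11 at an E2F4 fold of 5, 1.07 with the split extract, 1.01 with bins started 250 bp later, 1.14 and 1.04 at H3K27me3 folds of 2 and 5, 1.15 on background bins, 1.16 against a uniform background and 1.02 to 1.10 without either WCE library.

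The median distance to an RNA Pol II-rich bin was 59500 bp with at most 2 RNA Pol II reads. The share of reads on the strand with more reads was 57.9% with at least 12 E2F4 reads, 62.9% with repeats kept and 57.4% to 59.6% without either WCE library. Repeats were 20.5% with at least 12 E2F4 reads and 18.9% to 20.5% without either WCE library. Reads listed at 2 places fell in 28.4% of sites with at least 12 E2F4 reads, 12.98% with repeats kept and 18.5% to 31.4% without either WCE library.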
